A study of Mus musculus with 3 samples.

Results

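Cholesterol and fatty acids are both built from acetyl-CoA, and the 34 genes described here encode the enzymes of these pathways and their regulators. They were chosen by gene name, as 18 enzymes of sterol synthesis, 11 enzymes of fatty acid synthesis and 5 regulators, out of 55573 genes in the deposited table, and each of the 34 names was found in it once. Their levels were measured with UMI-RNAseq, in which a random tag put on every molecule (a UMI, or unique molecular identifier) lets PCR copies be removed, in 3 libraries of untreated NIH3T3 cells, an established mouse embryonic fibroblast line grown in DMEM with fetal bovine serum. The libraries, named 1, 2 and 3 after the numbers in their labels, share this 1 condition, so no groups of samples were compared. Whether they came from separate cultures is not stated, and each SD may therefore cover technical spread only. The values are FPKM, the fragments counted for a gene, divided by the gene length in kilobases and by the library total in units of 1000000. They are levels per length, and comparisons between genes depend on the length used for each gene.

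The libraries held between 13959723 and 14423209 counted fragments, and 12905 genes had a mean of at least 1 FPKM. Of 12 fibroblast markers, 10 reached that level, led by Fn1, which encodes fibronectin, with 4377 FPKM, while Lum was listed at 0. The extraction text of the labels mentions retina, but 0 of 10 retina markers reached 1 FPKM, with Rcvrn the highest at 0.363 FPKM. Among 10 hepatocyte markers, 0 reached it, with Cyp7a1 the highest at 0.202 FPKM. Of 12 adipocyte markers, 2 reached it, Fabp4 with 7.69 FPKM and Lipe with 2.51 FPKM, and Adipoq was listed at 0.

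In the mevalonate pathway, acetyl-CoA is turned into isoprenoid units, which are joined to squalene, closed to the ring of lanosterol and trimmed to cholesterol. Fatty acid synthesis starts from the same acetyl-CoA, released from citrate in the cytosol, and goes on to chain building, elongation and desaturation. Both are controlled by the sterol regulatory element binding proteins (SREBPs), membrane-bound factors that SCAP escorts to the Golgi for cleavage when sterols are low and that INSIG proteins hold back in the endoplasmic reticulum when sterols are high.

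In these fibroblasts, enzymes of fatty acid synthesis lay at higher levels than most enzymes of sterol synthesis. The median over the 18 sterol enzymes was 10.6 FPKM, with 10.65, 10.97 and 10.37 FPKM in libraries 1, 2 and 3. The median over the 11 fatty acid enzymes was 62.9 FPKM, with 61.5, 61.8 and 63.8 FPKM in the same libraries. The ratio of these medians within a library was 5.85 ± 0.267 (SD, n = 3). The 5 regulators had a median of 57.1 FPKM, 5.36 ± 0.214 (SD, n = 3) times that of the sterol enzymes. Division by the longest annotated isoform lowered the ratio of fatty acid to sterol enzymes to 3.95 ± 0.126 (SD, n = 3). These are levels of RNA averaged over all cells of a bulk sample, in which fewer expressing cells and less RNA per cell cannot be told apart. Several of these enzymes, more of them in the sterol branch, share sequence with other genes, as given below. The part of this sharing in the ratio between the branches was not tested.

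**Figure D1:**
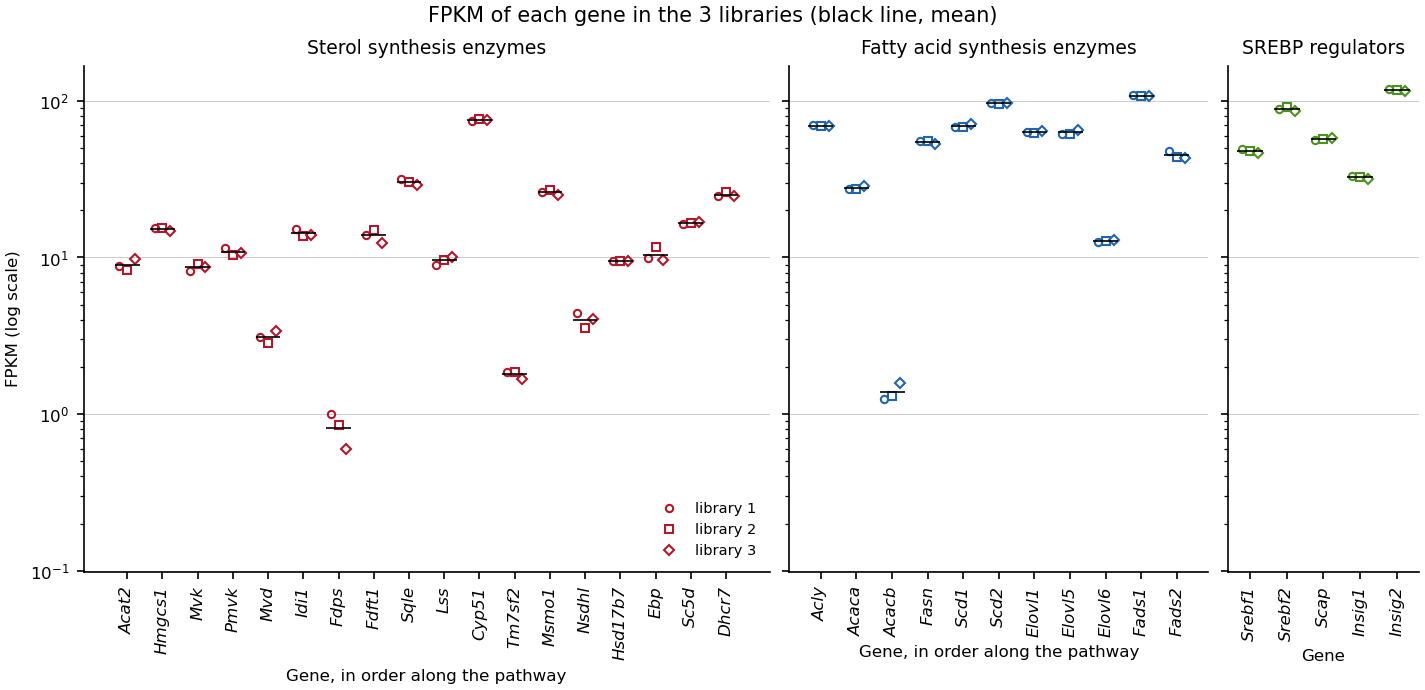
FPKM of the 34 genes in each of the 3 libraries on a log axis, with sterol and fatty acid enzymes in order along their pathways and black lines at the means. The sterol enzymes range from Fdps, under 1 FPKM on average, to Cyp51 at 75.5 FPKM, and 8 of the 11 fatty acid enzymes lie above every sterol enzyme except Cyp51.

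The early enzymes of sterol synthesis were present at moderate levels. Acat2, which joins acetyl-CoA units to acetoacetyl-CoA, had 8.76, 8.33 and 9.73 FPKM in libraries 1, 2 and 3. Hmgcs1, which adds a further acetyl-CoA to form HMG-CoA, had 15.5, 15.5 and 14.7 FPKM. Between them, the levels of the libraries did not overlap, and Hmgcs1 lay higher in each. Mevalonate kinase (Mvk) had 8.19, 9.13 and 8.74 FPKM, as deposited close to Acat2, with which its range overlapped. The next kinase, Pmvk, had 11.4, 10.3 and 10.6 FPKM. The decarboxylase Mvd was lower, with 3.09, 2.83 and 3.39 FPKM. Idi1, which interconverts the isoprenoid units, had 15.20, 13.75 and 13.96 FPKM, and so as deposited lay within a range that overlapped that of Hmgcs1. Over the longest isoforms Idi1 lay below Hmgcs1, with 5.54 ± 0.304 against 9.67 ± 0.303 FPKM (SD, n = 3).

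The promoter windows of Hmgcs1 and Mvk are shown because they held the most matches to the motifs marked in them among the 28 of the 34 genes that had a window. Each window covers 250 bases before to 50 bases after a RefSeq transcript start on GRCm38.p6 and is written 5′ to 3′ on the gene's strand. Capitals mark the letters TCACNCCAC, a form of the sterol regulatory element (SRE) that SREBPs bind, and CCAAT, the box bound by the factor NF-Y, or their reverse complements. The Hmgcs1 window lies on the plus strand at chr13:119690101-119690400 and the Mvk window on the plus strand at chr5:114444019-114444318.
Hmgcs1: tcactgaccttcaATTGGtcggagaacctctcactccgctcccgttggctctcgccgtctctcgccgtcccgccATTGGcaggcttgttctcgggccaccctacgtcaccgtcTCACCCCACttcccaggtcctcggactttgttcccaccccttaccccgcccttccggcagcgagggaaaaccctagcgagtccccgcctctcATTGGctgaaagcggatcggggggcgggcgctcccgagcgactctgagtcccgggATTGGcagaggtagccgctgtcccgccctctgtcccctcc
Mvk: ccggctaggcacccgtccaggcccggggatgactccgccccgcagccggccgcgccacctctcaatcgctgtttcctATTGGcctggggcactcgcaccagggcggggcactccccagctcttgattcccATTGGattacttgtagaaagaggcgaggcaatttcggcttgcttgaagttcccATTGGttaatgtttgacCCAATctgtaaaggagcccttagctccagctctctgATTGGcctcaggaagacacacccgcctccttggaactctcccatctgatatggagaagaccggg
In the Hmgcs1 window, an SRE match of the letters TCACCCCAC began 137 bases before the start, beside CCAAT boxes in the reverse direction at 237, 176 and 45 bases before it and 1 at 10 bases after it. The Mvk window held 5 CCAAT boxes, at 173, 120, 67, 50 and 14 bases before the start.

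Fdps, which builds farnesyl pyrophosphate, was the lowest of the 34 genes. It had 1.00, 0.854 and 0.595 FPKM in libraries 1, 2 and 3, from 17, 14 and 10 fragments. Exact Clopper-Pearson 95% intervals, which cover counting error only, were 0.584 to 1.61 FPKM for library 1, 0.467 to 1.43 FPKM for library 2 and 0.285 to 1.09 FPKM for library 3. They overlapped, and a difference between the libraries was not detectable at this depth. Fdps was the only gene of the 34 with a mean under 1 FPKM, and the enzymes before and after it in the pathway, Idi1 and Fdft1, lay at 14.3 and 13.8 FPKM. In GENCODE M21 on GRCm38, Fdps (ENSMUSG00000059743) spans 89093588 to 89101959 of chromosome 3, minus strand. The protein-coding gene Gm43738, on the same strand, covers 1124 of its 4208 exonic nt, or 26.7%, and was listed at 0 in all 3 libraries. In the longest protein-coding isoform of Fdps, 80.4% of the 75-nt words were shared with transcripts of other genes. Besides Gm43738, the processed pseudogene Gm3571 shared 334 of these words over all isoforms, and its level was 1.37, 1.82 and 1.58 FPKM. How the counting treated reads that fit several genes is not stated, and the part of these shared words in the level of Fdps was not tested. Without Fdps, the median over the sterol enzymes was 10.8 FPKM. By the same measure, Acat2 shared 40.7% of its words, Idi1 29.1%, Fdft1 25.4% and Hmgcs1 12.2%, and the other sterol enzymes at most 2.74%. Among the fatty acid enzymes, Acaca shared 47.4% and the others at most 3.24%.

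The committed steps toward sterols, from Fdft1 to Cyp51, spanned from 9.603 to 75.48 FPKM on average as deposited. Fdft1 (squalene synthase), the enzyme that turns farnesyl pyrophosphate to squalene, had 13.99, 15.06 and 12.46 FPKM. Squalene epoxidase (Sqle), which adds the oxygen needed for ring closure, had 31.7, 30.4 and 29.1 FPKM, all above the range of Fdft1. Lss, which closes squalene epoxide to lanosterol, had 9.01, 9.67 and 10.1 FPKM. As deposited, lanosterol demethylase (Cyp51) was the highest sterol enzyme, with 74.9, 76.1 and 75.4 FPKM. It made up 26.5% ± 0.343 (SD, n = 3) of the summed FPKM of the 18 enzymes. Cyp51 (ENSMUSG00000001467) spans 4081145 to 4104746 of chromosome 5, minus strand, and 166 nt of its exons, or 3.76%, overlap those of Akap9 on the opposite strand, a gene at 203 to 211 FPKM. Over the longest isoform, the level of Cyp51 was 28.5 FPKM, still the highest among the sterol enzymes. Over the mean length of protein-coding isoforms it was also 28.5 FPKM, but Msmo1 with 40.1 FPKM and Sqle with 31.4 FPKM then lay above it.

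Among the 34 genes, the enzymes that act after Cyp51 on the way to cholesterol spanned from 1.799 to 26.02 FPKM. Tm7sf2, a sterol reductase, had 1.86, 1.86 and 1.69 FPKM, from 27 to 30 fragments. Lbr, which encodes the lamin B receptor and carries the same reductase activity, had 48.9, 55.9 and 49.5 FPKM. Exons of Tm7sf2 overlap those of Vps51 on the same strand over 532 nt, or 12.1%. The sterol oxidase Msmo1 had 26.1, 26.8 and 25.2 FPKM, whereas Nsdhl, the dehydrogenase that acts after it, had 4.39, 3.54 and 4.03 FPKM. Hsd17b7, the reductase that completes the removal of the same methyl groups, had 9.554, 9.564 and 9.557 FPKM. Its values were the closest of the 34 genes between libraries. The isomerase Ebp had 9.87, 11.6 and 9.59 FPKM, a range that overlapped those of Lss and Pmvk. The desaturase Sc5d had 16.3, 16.7 and 16.9 FPKM. Dhcr7, which reduces the precursor of cholesterol that also gives vitamin D, had 24.8, 26.1 and 24.6 FPKM, a range that overlapped that of Msmo1.

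Among the enzymes that supply and join carbon units for fatty acids, Acly and Fasn lay above the upper quartile of all measured genes, Acaca between their median and upper quartile, and Acacb near the bottom. Acly, which releases acetyl-CoA from citrate, had 70.4, 69.1 and 69.1 FPKM. Acetyl-CoA carboxylase Acaca, the cytosolic form that makes malonyl-CoA for synthesis, had 27.3, 27.3 and 28.5 FPKM. Acacb, the form at mitochondria whose malonyl-CoA restrains fatty acid oxidation, had 1.26, 1.30 and 1.57 FPKM. Acaca thus lay 20.3-fold ± 1.91 (SD, n = 3) above Acacb, or 12.7-fold ± 1.20 (SD, n = 3) over the longest isoforms. The processed pseudogene Gm5182 shares sequence with Acaca, in whose longest protein-coding isoform 47.4% of 75-nt words occurred in another gene. Gm5182 had 2.95, 2.81 and 2.60 FPKM, and its part in the level of Acaca was not tested. Fatty acid synthase (Fasn), which builds palmitate, had 55.5, 55.2 and 53.3 FPKM.

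The stearoyl-CoA desaturases, which make monounsaturated fatty acids, were both high. Scd2 (ENSMUSG00000025203) spans 44293674 to 44306864 of chromosome 19 on the plus strand, and Scd1 (ENSMUSG00000037071) spans 44394455 to 44407879 on the minus strand. Scd2 had 96.4, 96.1 and 97.1 FPKM, and Scd1 had 68.0, 67.9 and 71.3 FPKM. Scd2 lay 1.40-fold ± 0.0312 (SD, n = 3) above Scd1, and 2.40-fold ± 0.0535 over the longest isoforms. Their paralogs Scd3 and Scd4, outside the 34, had 0.0563 and 0.105 FPKM on average.

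Of the elongases, Elovl1 and Elovl5 lay within overlapping ranges as deposited, and Elovl6 well below them. Elovl1, which extends saturated and monounsaturated very long chains, had 63.1, 62.0 and 63.8 FPKM. Elovl5, which extends polyunsaturated chains, had 61.5, 61.8 and 65.3 FPKM, and the ranges of the pair overlapped. Elovl6, which extends palmitate toward stearate, had 12.5, 12.7 and 12.9 FPKM. Elovl1 was 4.97-fold ± 0.0834 and Elovl5 4.96-fold ± 0.0874 (SD, n = 3) above it. Over the longest isoforms these ratios were 7.0 ± 0.118 and 4.91 ± 0.0867. Elovl1 then lay above Elovl5, with 35.82 against 25.15 FPKM. Over the mean length of the protein-coding isoforms the ratios were 3.7 ± 0.062 and 4.39 ± 0.0775. There Elovl5 lay above Elovl1, with 55.73 against 46.88 FPKM. Elovl2, Elovl3 and Elovl7 were listed at 0 in all 3 libraries, while Elovl4 had 10.0 FPKM on average.

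The desaturases of polyunsaturated fatty acids lie next to each other on chromosome 19, Fads2 (ENSMUSG00000024665) at 10062765 to 10101746 (minus strand) and Fads1 (ENSMUSG00000010663) at 10182888 to 10196877 (plus strand). Fads1 was the highest enzyme of the 34 genes, with 109 FPKM in library 1, 107 in library 2 and 108 in library 3. Fads2 had 48.1, 43.5 and 43.0 FPKM. The ratio of Fads1 to Fads2 was 2.41 ± 0.124 (SD, n = 3), with the lowest value, 2.27, in library 1, where Fads2 was highest. Fads3, a paralog outside the 34, had 116 FPKM on average.

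All 5 regulators were measured well above 1 FPKM. Srebf2, whose product SREBP2 mainly drives sterol genes, had 88.3, 91.1 and 86.5 FPKM. Srebf1, whose products are SREBP1a and SREBP1c, had 49.2, 47.9 and 46.8 FPKM. The isoforms of Srebf1 share 1 value in the table and cannot be told apart. Srebf2 lay 1.85-fold ± 0.0539 (SD, n = 3) above Srebf1, 2.41-fold ± 0.0703 over the longest isoforms and 4.13-fold ± 0.120 over the mean length of the protein-coding isoforms. Scap, the escort of both factors, had 56.6, 56.8 and 58.1 FPKM. Mbtps1 and Mbtps2, the Golgi proteases that release the factors and genes outside the 34, had 68.2 and 36.8 FPKM on average.

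Insig2 was the highest of the 34 genes, with 119 FPKM in library 1, 117 in library 2 and 115 in library 3. Insig1, which is itself a known SREBP target, had 33.2, 32.7 and 31.8 FPKM. The ranges were far apart, and Insig2 lay 3.58-fold ± 0.0247 (SD, n = 3) above Insig1. This ratio depended on the length by which fragments are divided. The deposited FPKM of Insig2 implies a length of 783 nt, the mean of 14 annotated isoforms between 204 and 2697 nt, against 1727 nt for the 2 isoforms of Insig1. Over the longest isoforms, both of 2697 nt, Insig2 lay 1.62-fold ± 0.0112 (SD, n = 3) above Insig1, and over the mean length of the protein-coding isoforms 5.05-fold ± 0.0348.

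The promoter windows of the INSIG genes are shown because this pair differed the most among the regulators by deposited FPKM, though not over the longest isoforms. Capitals again mark SRE letters or CCAAT boxes. Insig1 has its window on the plus strand at chr5:28071162-28071461, and of the 3 windows of Insig2 the one with most matches is given, on the minus strand at chr1:121332540-121332839.
Insig1: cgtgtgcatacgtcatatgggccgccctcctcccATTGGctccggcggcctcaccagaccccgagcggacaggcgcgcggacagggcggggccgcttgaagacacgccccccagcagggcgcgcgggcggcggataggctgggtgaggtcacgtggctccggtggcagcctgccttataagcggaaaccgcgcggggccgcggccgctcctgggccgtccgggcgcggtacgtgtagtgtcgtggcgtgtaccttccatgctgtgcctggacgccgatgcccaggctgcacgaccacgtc
Insig2: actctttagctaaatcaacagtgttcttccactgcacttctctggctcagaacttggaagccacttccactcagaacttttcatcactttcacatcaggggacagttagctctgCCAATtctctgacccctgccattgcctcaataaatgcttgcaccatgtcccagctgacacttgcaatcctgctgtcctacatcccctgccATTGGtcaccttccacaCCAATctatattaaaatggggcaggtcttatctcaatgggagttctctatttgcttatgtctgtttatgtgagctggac
The Insig1 window held 1 CCAAT box, 216 bases before the start, and an E-box (CACGTG) at 101 bases before it. The Insig2 window shown held 3 CCAAT boxes, at 136, 46 and 29 bases before the start, and the other windows of Insig2 held none. Neither window held the SRE letters searched. Other forms of the element, and sequence outside the windows, were not searched, so an SRE may still be present.

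Each of the 7 ratios between related genes (Srebf2 to Srebf1, Insig1 to Insig2, Acaca to Acacb, Scd2 to Scd1, Elovl1 and Elovl5 to Elovl6, and Fads1 to Fads2) had the same direction in 3 of 3 libraries and was larger than the spread between them. By exact permutation (sign flips, two-sided), p was 0.25 for every ratio, and stayed 0.25 with Benjamini-Hochberg adjustment for 7 tests. With 3 libraries no smaller p can be reached, and 0.05 is out of reach of this test.

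In the order of mean FPKM, Insig2, Fads1, Scd2, Srebf2 and Cyp51 stood at the top, with ranges over the libraries that did not overlap between neighbours. Of the 33 pairs of neighbours in the whole order, 12 had overlapping ranges and 21 did not. Neighbours with overlapping ranges were Acly and Scd1, Elovl1 and Elovl5, Srebf1 and Fads2, and Msmo1 and Dhcr7. Ranges also overlapped between each gene and the next, though not across the whole run, from Hmgcs1 to Idi1, Fdft1 and Elovl6. The same held for neighbours along the run Pmvk, Ebp, Lss, Hsd17b7, Acat2 and Mvk. Over the longest isoform, Scd2 came first with 67.5 FPKM, followed by Fads1 with 44.7, Srebf2 with 39.5, Acly with 37.4, Elovl1 with 35.8 and Insig2 with 33.9 FPKM. Scap was lowered by the largest factor in that setting, to 13.96 FPKM, because its longest isoform is 4.09 times the length the deposited value implies.

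**Figure D2:**
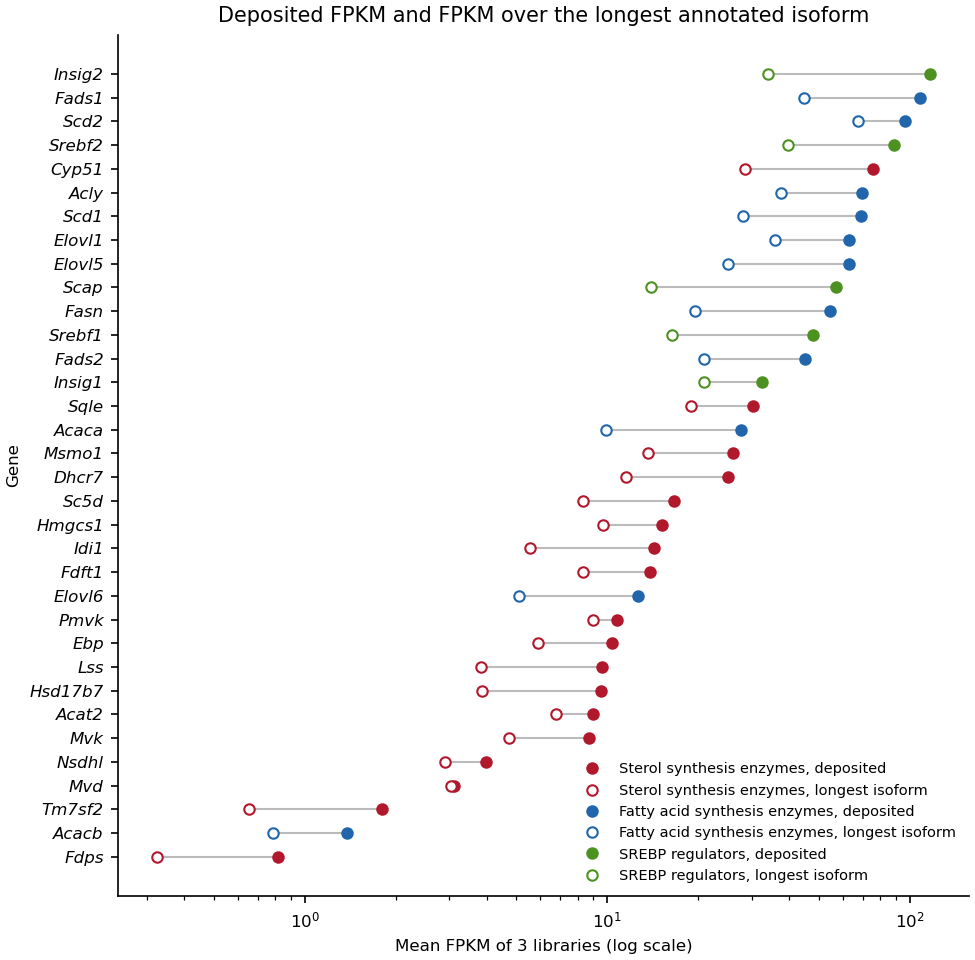
Mean FPKM of each gene over 3 libraries as deposited (filled points) and after division by the longest annotated isoform (open points), on a log axis and sorted by the deposited mean. Insig2 moves from 116.7 to 33.9 FPKM and Scd2 from 96.5 to 67.5 FPKM, so the order at the top changes while Fdps stays lowest.

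Beside all 12905 genes with a mean of at least 1 FPKM, whose median was 17.5 FPKM, the pathways took different places. Of the 18 sterol enzymes, 4 lay above that median and 1 above the upper quartile of 43.5 FPKM, and 4 lay below the lower quartile of 5.42 FPKM. Of the 11 fatty acid enzymes, 9 lay above the median, 8 above the upper quartile and 2, Fads1 and Scd2, in the top 10%, which began at 94.6 FPKM. Of the regulators, 5 of 5 lay above the median and Insig2 in the top 10%. The 34 genes together took between 2316 and 2337 of each 1000000 fragments. The 24 genes of glycolysis and the pentose phosphate pathway, for scale, had a median of 92.9 FPKM, from Pkm at 1319 FPKM to Aldoc at 0.365 FPKM.

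A further 29 genes of these pathways had a median of 16.4 FPKM, and 21 of them reached 1 FPKM. The highest were Cyb5r3 with 231 FPKM and Por with 132 FPKM, which pass electrons to desaturases and to Cyp51, followed by Fads3. Mlxipl, which encodes the carbohydrate-responsive regulator ChREBP, was listed at 0 in all 3 libraries, as were the 3 elongases named before. Of 15 genes of sterol uptake, storage and efflux, 12 reached 1 FPKM, with a median of 21.7 FPKM. Lrp1, a large endocytic receptor, had 1014 FPKM, the lysosomal cholesterol carrier Npc2 had 161 FPKM and the liver X receptor gene Nr1h2 had 80.2 FPKM. Among the lowest were Nr1h3, the other liver X receptor gene, with 0.0950 FPKM and the efflux transporter Abcg1 with 0.203 FPKM.

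**Figure D3:**
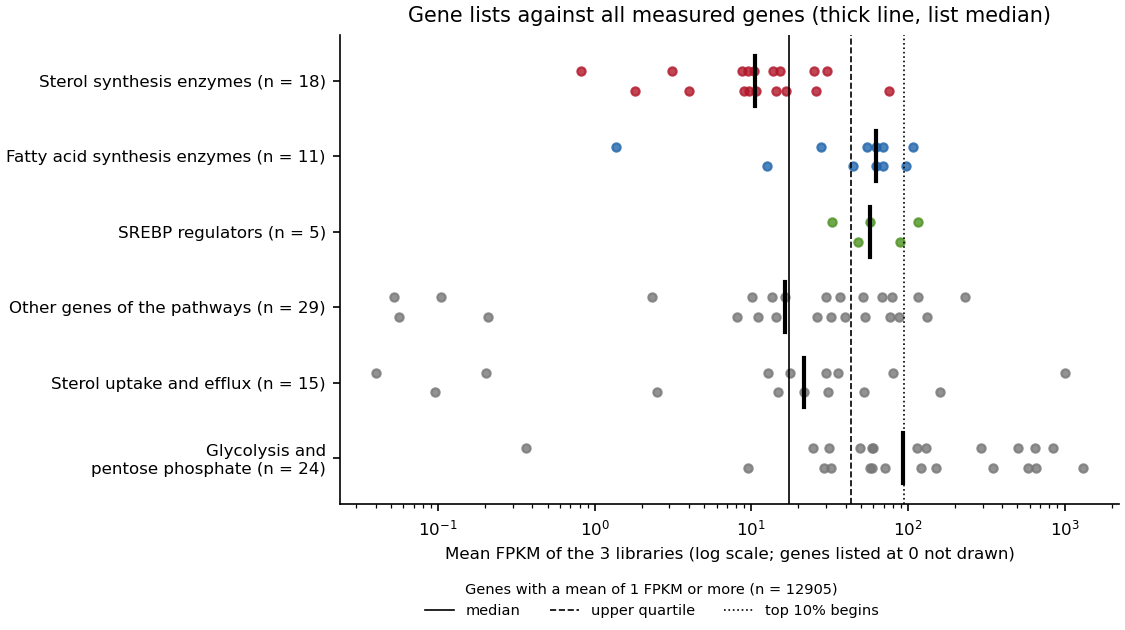
Mean FPKM of each gene in 6 lists on a log axis, with a thick line at each list's median and vertical lines at the median, the upper quartile and the start of the top 10% of all 12905 genes with at least 1 FPKM. The median of the sterol enzymes, 10.6 FPKM, lies below that of all genes, and those of the fatty acid enzymes and the regulators lie above the upper quartile.

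The median coefficient of variation (CV) of the 34 genes between libraries was 3.09%, against 4.66% over the 13765 genes with at least 30 fragments in all. The CV from counting falls as fragments rise, and the 2 sets were not matched for depth. At least 300 fragments were found for 29 of the 34 genes and for 9990 of the 13765. A CV below that from counting alone was seen for 22 of the 34 (64.7%), against 57.8% of the 13765. The fragments of each gene were compared between libraries with a chi-square statistic, with 5.99 as the limit that 5% of genes exceed from counting error. Of the 34 genes, 2 exceeded it, Fdft1 with 7.77 and Fads2 with 7.23, whereas 9.53% of all genes tested did. With Benjamini-Hochberg adjusted p-values of the chi-square statistic over all genes, 0 of the 34 and 2.06% of all genes stayed under 0.05, and the lowest adjusted p of the 34 was 0.38, for Fdft1. Fdft1 exceeded the limit through a low value in library 3, with 447, 466 and 395 fragments. Of its exonic sequence, 18.3% overlaps Ctsb on the opposite strand, a gene at 370 to 380 FPKM, and whether strand was used in counting is not stated. Fads2 had 1013, 888 and 899 fragments, and so was high in library 1. Without library 1 only Fdft1 exceeded the limit, without library 3 only Fads2 did, and without library 2 it was Fads2 and Sqle. No library stood apart over the 34 genes, of which 13 were highest in library 1, 9 in library 2 and 12 in library 3.

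**Figure D4:**
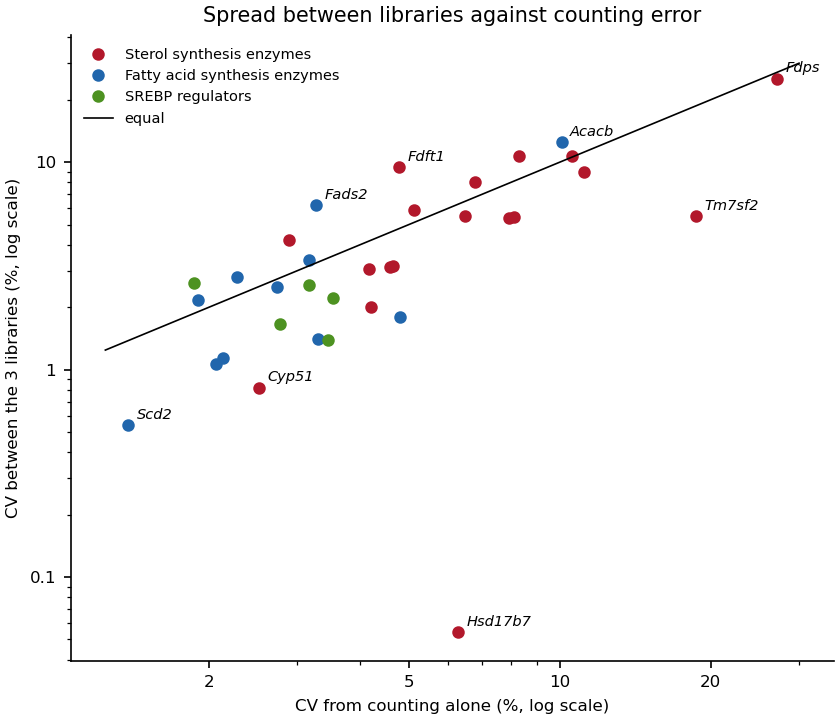
CV of FPKM between the 3 libraries against the CV from counting alone for each of the 34 genes, both in percent on log axes, with a line where they are equal. Fdft1 and Fads2, above the line, exceeded the chi-square limit, while Hsd17b7, with a CV of 0.0541%, lies farthest below it and Fdps has the largest CV, 25.3%.

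Promoter windows were found in RefSeq for 28 of the 34 genes, 37 windows in all, since several genes have more than 1 start and some of their windows overlap. Fads1, Fdps, Sqle, Scd1, Scd2 and Fdft1 had none in the table. The letters were searched on both strands and counted also where motifs overlap. The SRE letters TCACNCCAC occurred in 1 of 37 windows, that of Hmgcs1, and in 1.24% of all 32851 windows. Only this form was searched, and a window without it may hold another form of the element. The CCAAT box occurred in 24 of the 37 windows (64.9%), against 37.4% of all windows and 38.6% of those of genes with at least 1 FPKM. By group it occurred in 14 of 18 windows of sterol enzymes, 5 of 9 of fatty acid enzymes and 5 of 10 of regulators. The GC box (GGGCGG), bound by Sp1, occurred in 27 windows (73.0%), against 35.7% of all windows and 63.3% of those of genes with at least 1 FPKM. The groups differed, with 15 of 18 windows of sterol enzymes (83.3%), 4 of 9 of fatty acid enzymes (44.4%) and 8 of 10 of regulators (80.0%). The E-box CACGTG occurred in 7 windows (18.9%), against 7.15% of all and 10.0% of those of genes with at least 1 FPKM. These shares are descriptions, and binding was not measured. The 47 CCAAT boxes lay from 237 bases before to 37 bases after the start, and 30 of them within the 100 bases before it.

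**Figure D5:**
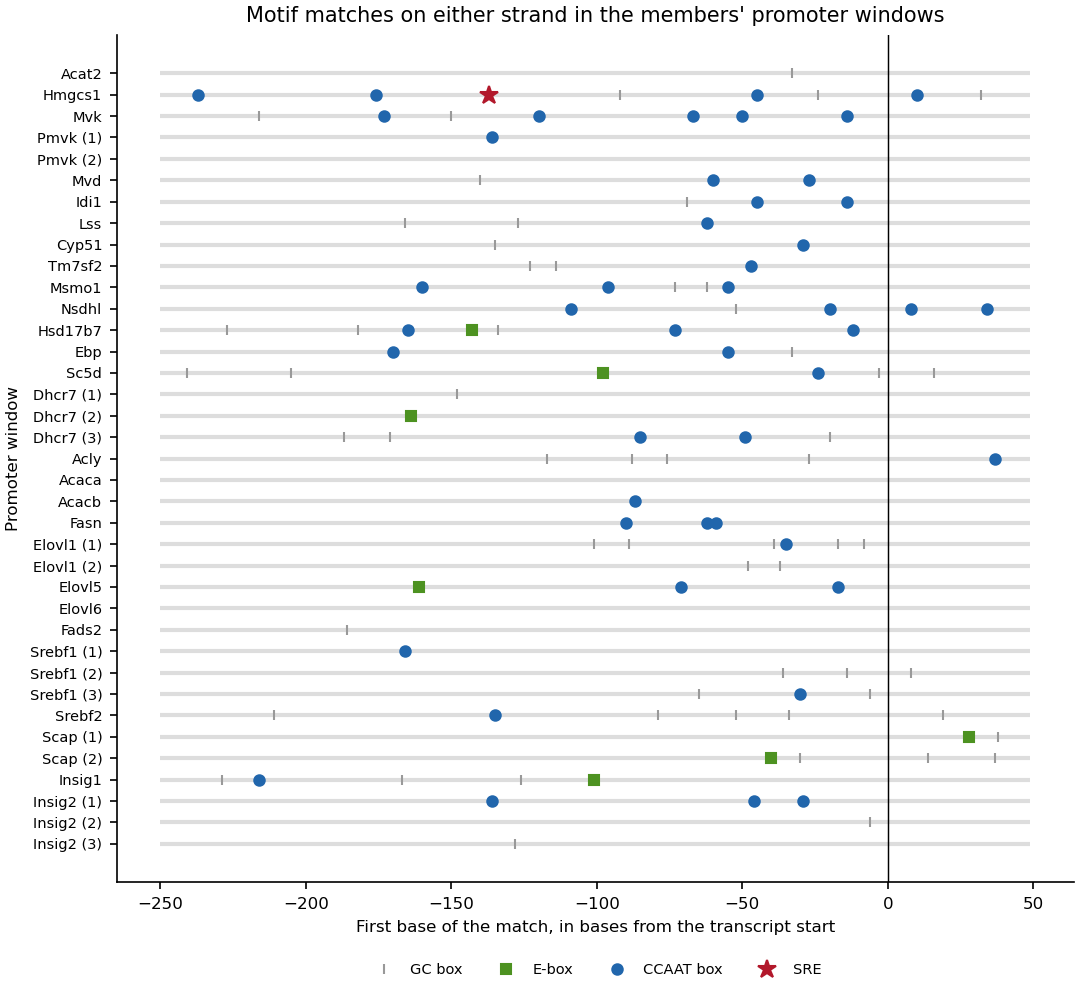
Position of each motif match in the 37 promoter windows, as bases from the transcript start (vertical line at 0), with genes in pathway order and numbers in brackets for genes with several windows. Of the 47 CCAAT boxes (circles), 30 lie in the 100 bases before the start, and the 1 SRE match (star) is in the Hmgcs1 window.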

How the data were processed

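UMI-RNAseq of 3 NIH3T3 libraries, with 150 nt paired-end reads, was used as deposited. Per the labels, the authors ran UMI-tools 1.0.0, HISAT2 2.0.4 and HTSeq 0.6.1; the labels also name DESeq 1.10.1, whose role is not stated. The authors kept reads with a UMI, mapped them, removed copies that shared both UMI and position, counted reads per gene, and deposited FPKM, with a column for each library. The genome build and annotation of the counting are not given in the sources used here. Both deposited tables hold identical values, and 0 columns were left unused.

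Count models were not fitted to FPKM. Fragments per gene were recovered (Python 3.11.15; numpy 2.4.6; pandas 2.3.3) as FPKM times the library total times the mean isoform length in GENCODE M21 (GRCm38). They came out whole, within 0.01 fragments, for 25969 of 26193 genes with a fragment (99.1%) and for 33 of the 34 genes described. For Fdft1 the nearest length that gave whole fragments, 2216 nt, was used. The recovery was tested on simulated data. Chi-square statistics with 2 degrees of freedom, intervals and permutation tests came from scipy 1.17.1, and figures from matplotlib 3.10.9. Library totals were 14423209, 13959723 and 14307241 fragments, and the 34 genes rested on 41 to 15708 fragments each. Intervals cover counting error only.

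The genes, lists and tests were chosen with earlier results of these data known. All 34 genes are named, the 3 highest and 3 lowest of the further pathway and sterol uptake genes, and the highest and lowest of other lists, except that some genes of these lists are not reported here. Lbr, Mbtps1, Mbtps2, Scd3, Scd4, Elovl4, Lipe and genes that share sequence with the 34 are named in addition, chosen after their values were seen. Where a gene name has several rows, the higher was used. Alternatives were leaving out each replicate, other scalings, lengths, pseudocounts and limits; leaving out Fdps and the length of protein-coding isoforms were added after the data were seen.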

Additional observations from a re-analysis of the deposited data

How the results depend on the processing

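Recomputing the results of the design gave 100 alternative values, of which 0 reversed and 12 moved. Many could not reverse. A pseudocount added to both genes, or a library left out, cannot turn a ratio with the same direction in 3 of 3 libraries. The other 88 are medians within 1 SD, counts within 1.5 times the reported count and ratios that kept their direction, though not always their size. With isoform length, the log2 ratio of Insig1 to Insig2 went from -1.84 to -0.70 (longest), that of Srebf2 to Srebf1 from 0.89 to 2.05 (protein-coding) and that of Scd2 to Scd1 from 0.48 to 1.26 (longest). The number of genes at the limit went from 33 to 25 with 10 FPKM in place of 1. The ratios kept their direction with other lengths, the only alternatives run that could have reversed them. By design, p stayed at 0.25 or above. Rescaling to a sum of 1000000 per library moved the medians to 15.3 for sterol enzymes, 91.1 for fatty acid enzymes and 82.8 for regulators. Over the longest isoform the medians were 6.33, 25.2 and 20.9 FPKM in the same order. Over the mean length of protein-coding isoforms, added after the data were seen, those of fatty acid enzymes and regulators were 45.0 and 47.3 FPKM. The median of the 3 libraries in place of their mean gave 10.2 FPKM for sterol enzymes. The number of genes past the chi-square limit lay between 1 and 2 when 1 replicate was left out, and was 0 with adjusted p-values. Of 170 values of single genes, 61 moved by more than the SD between libraries, all of them with another isoform length. The remaining alternatives left out 1 of 3 libraries, which cannot shift a mean by as much as that SD. Depth limits Fdps and Tm7sf2 the most, which rest on 41 and 86 fragments in all. No paired analysis was possible because 1 condition was measured.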
